A study of Mus musculus with 16 samples.

Results

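Skin tumors that had grown by week 25 of exposure to ultraviolet B light (UVB) were set against UVB-exposed epidermis collected in the same week. The comparison rests on 4 of the 16 RNA-seq libraries of the study, 2 of tumor and 2 of UVB epidermis. All mice were female and of the hairless SKH-1 strain. The mice that gave the tumor and UVB epidermis libraries had received 60 mJ/cm2 of UVB in 2 sessions per week. The labels name the tissue only as a skin tumor and give no histological type. A tumor holds dermis, vessels and deeper tissue that a sheet of epidermis lacks, so a difference between them mixes tumor with tissue depth. The depth difference was measured in mice that received no agent, as whole skin against control epidermis of week 25, with 2 libraries each. Genes that differ in tumor over UVB epidermis were separated by whether they also differ in whole skin over control epidermis. These comparisons share no library. Whether a group's libraries stem from different mice, from pools or from repeat preparations is not stated in the labels. The p-values therefore describe variation among these libraries, and that variation may be only technical.

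Of 15126 genes tested, 4469 (29.5%) were called in tumor over UVB epidermis, that is, passed an adjusted p under 0.05. Higher expression in tumor was called for 2543 genes (16.8%) and lower expression for 1926 (12.7%). Of the 4469, 4183 (93.6%) were also called in the same direction in whole skin over control epidermis. Another 284 were not called there and 2, Duoxa1 and Hpgd, were called in the opposite direction.

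Chronic UVB produces papillomas and squamous cell carcinomas in hairless mice. Epidermis is a layered sheet: basal keratinocytes divide on a basement membrane, and the cells above them make keratins, envelope proteins and lipids of the skin barrier. Beneath lie the collagen-rich dermis with fibroblasts, vessels, macrophages and mast cells, then fat and the panniculus carnosus, a thin sheet of skeletal muscle under rodent skin. Matrix metalloproteinases cut collagens and other matrix proteins, and several are transcribed through AP-1, a dimer of Fos and Jun proteins. The Cxcl chemokines with an ELR motif draw neutrophils through the receptor Cxcr2, and their promoters carry sites for the factor NF-kappa B.

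Several of the metalloproteinases and neutrophil chemokines described below have, just upstream of the gene, a match to the AP-1 or the kappa B motif. The sequences show those of 7 such genes. Each is the 110 bases before the RefSeq transcription start on the plus strand of GRCm38.p6, 5′ to 3′, and the capitals mark the match to the AP-1 motif TGANTCA. The windows are chr9:7445712-7445821 for Mmp3, chr9:7502232-7502341 for Mmp10, chr9:7347264-7347373 for Mmp12 and chr9:7272404-7272513 for Mmp13.
Mmp3: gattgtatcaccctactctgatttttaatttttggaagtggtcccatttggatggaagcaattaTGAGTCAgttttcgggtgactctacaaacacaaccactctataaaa
Mmp10: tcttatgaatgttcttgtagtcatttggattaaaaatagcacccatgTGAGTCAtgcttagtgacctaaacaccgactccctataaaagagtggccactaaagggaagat
Mmp12: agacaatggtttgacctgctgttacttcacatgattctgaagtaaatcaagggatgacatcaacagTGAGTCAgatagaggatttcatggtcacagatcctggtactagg
Mmp13: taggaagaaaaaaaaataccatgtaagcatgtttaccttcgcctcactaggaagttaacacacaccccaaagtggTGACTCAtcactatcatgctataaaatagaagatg

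For the chemokines the windows are chr5:90891135-90891244 for Cxcl1, chr5:90903789-90903898 for Cxcl2 and chr5:90785991-90786100 for Cxcl3, and the capitals mark the match to the kappa B motif, GGGA followed by any base and TTTCC.
Cxcl1: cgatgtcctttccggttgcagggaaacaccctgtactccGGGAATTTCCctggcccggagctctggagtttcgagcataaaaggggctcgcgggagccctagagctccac
Cxcl2: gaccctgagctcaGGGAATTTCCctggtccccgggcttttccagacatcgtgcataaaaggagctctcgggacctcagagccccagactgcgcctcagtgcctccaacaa
Cxcl3: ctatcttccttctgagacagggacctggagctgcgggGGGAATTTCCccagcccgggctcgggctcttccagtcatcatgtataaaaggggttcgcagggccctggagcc

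The AP-1 match lay 46 to 40 bases upstream of the start in Mmp3, 63 to 57 in Mmp10, 44 to 38 in Mmp12 and 35 to 29 in Mmp13. Mmp12 has 2 starts in the RefSeq table and the match belongs to 1 of them. Of 14 metalloproteinase genes listed, 11 had an entry and 7 held the motif, on either strand, in the 110 bases before any of their starts. Of all 32851 such windows of 110 bases, counted per start and not per gene, 1011 (3.08%) held it. The kappa B match lay 71 to 62 bases upstream in Cxcl1, 97 to 88 in Cxcl2 and 73 to 64 in Cxcl3. It was found in 3 of the 5 Cxcl genes with an entry, out of 7 listed, and in 51 of all windows (0.155%). The motifs do not overlap each other. A match describes the letters and was not tested as a binding site.

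Gene counts summed to 5969142 and 6463603 in tumor 0 and 1, and to 6238016 and 5657967 in UVB epidermis 0 and 1. They summed to 7959503 and 4854612 in whole skin 0 and 1, and to 6503183 and 7175363 in control epidermis 0 and 1. The whole skin libraries stood apart from each other, with a chi-square of 48.9 per degree of freedom, against 4.82 between the tumor libraries, 7.14 between the UVB epidermis libraries and 7.29 between the control epidermis libraries. No pair differed by less than sampling noise. The UVB epidermis libraries differed for some dermal genes. Their collagen genes summed to 782 and 542 CPM and their fibroblast genes to 766 and 782 CPM in UVB epidermis 0 and 1. The fibroblast list also summed to 734 and 759 CPM in control epidermis 0 and 1, with 3 and 5 of 18 members at 0. The collagen list includes Col7a1, which keratinocytes make, so neither sum measures dermal content alone. Col1a1, a chain of collagen I, had 147 and 227 CPM (counts scaled to a common library total) in tumor, against 24.7 and 3.75 CPM in UVB epidermis 0 and 1. Without UVB epidermis 1 the calls in tumor over UVB epidermis numbered 2089, and without UVB epidermis 0 they numbered 3405. Without tumor 0 they numbered 2760 and without tumor 1 2658. A group left with 1 library is assumed in the fit to vary like the other groups.

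In whole skin over control epidermis 8409 genes (55.6%) were called, 4826 higher (31.9%) and 3583 lower (23.7%). Scaling by total counts, which moved the median log2 of all genes to 0.56, against 0.18 with TMM scaling, gave 6309 higher and 2227 lower. For tumor over UVB epidermis that median was 0.19 with total counts and 0.03 with TMM, and the calls were 2836 higher and 1432 lower. The 4183 genes called in the same direction in both comparisons make up 49.7% of the whole skin calls. They include 2379 of the 2543 higher in tumor (93.6%) and 1804 of the 1926 lower (93.7%). Among the 2379, the median log2 fold was 3.26 in tumor over UVB epidermis and 4.44 in whole skin over control epidermis, and 1865 had the larger value in whole skin. Among the 1804 the medians were -1.01 in tumor over UVB epidermis and -1.44 in whole skin over control epidermis, and 1552 were larger in size in whole skin.

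The difference of the contrasts, tumor over UVB epidermis minus whole skin over control epidermis, was tested in the same fit and called for 14 genes (0.0926%), 1 higher (0.00661%) and 13 lower (0.0859%). At an unadjusted p under 0.05 it counted 2371 genes. DESeq2 called 306. Without whole skin 0 it was called for 1265 genes and without whole skin 1 for 96, so the count depends on these libraries. Without any of the other 6 libraries of the week in turn it was called for 0 to 2 genes. The count of genes called in tumor alone moved as well: it was 105 without tumor 0, 58 without tumor 1, 150 without UVB epidermis 0, 25 without UVB epidermis 1, 631 and 853 without whole skin 0 and 1, and 498 and 658 without control epidermis 0 and 1. None of the 284 genes called in tumor alone had a called difference with all libraries. Without whole skin 0 this number was 15, and without whole skin 1 it was 5. A call in tumor and none in whole skin is therefore a label for these genes and does not show that they differ by more than tissue depth. Of the 284, 148 of 164 higher and 109 of 120 lower genes had a log2 of the same sign in whole skin. For 36 and 50 of them the 95% interval of the whole skin log2 lay within 1 of 0.

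**Figure D1:**
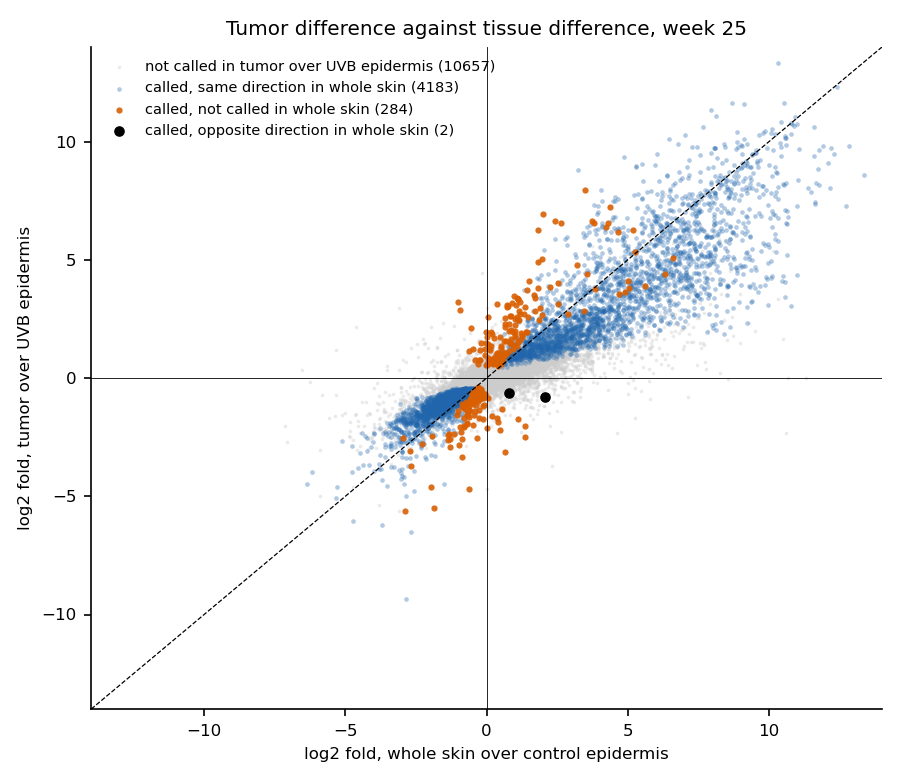
Each point is 1 of 15126 genes, with its log2 fold in whole skin over control epidermis on the x axis and in tumor over UVB epidermis on the y axis. Blue genes (4183) were called in the same direction in both, orange genes (284) in tumor alone and black genes (Duoxa1 and Hpgd) in opposite directions, and most blue points above 0 lie under the dashed line of equal folds.

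Among genes called in the same direction in both comparisons, the rule for named genes, which ranks by fitted log2, gave Myo18b, Ppp1r3a, Sgca, Dhrs7c and Kcnj11 as rises in tumor. All 5 were at 0 counts in UVB epidermis, so their order depends on the prior count, and DESeq2 did not call Kcnj11 (adjusted p = 0.0711). The falls were Acsm1, Mrgprb3, Adh6a, Sebox and Gprin2. Ppp1r3a, the subunit that targets protein phosphatase 1 to muscle glycogen, had 108 and 99.9 CPM in tumor, 0 counts in both UVB epidermis libraries, 53.2 and 171 CPM in whole skin and 0 counts in control epidermis, at least 420-fold higher in tumor. Sgca, the membrane protein alpha-sarcoglycan, had 57.5 and 74.0 CPM in tumor, 0 counts in UVB epidermis, 29.9 and 122 CPM in whole skin and 0.169 and 0.154 CPM in control epidermis, at least 267-fold higher. The floor in these folds is 3 counts summed over the 2 UVB epidermis libraries. Acsm1, an acyl-CoA synthetase, had 0 counts in both tumor libraries and 11.6 and 15.4 CPM in UVB epidermis. Whole skin had 6.50 and 3.57 CPM and control epidermis 42.8 and 31.7 CPM, and Acsm1 was at least 63.1-fold lower in tumor than in UVB epidermis (adjusted p = 6.73e-05). Sebox, a homeobox gene, had 0.432 and 1.24 CPM in tumor and 19.8 and 21.1 CPM in UVB epidermis, with 3.72 and 4.28 CPM in whole skin and 55.5 and 35.9 CPM in control epidermis. Tumor was the lowest group for both, below whole skin.

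Skeletal muscle genes had the highest median log2 of the 35 lists. All 21 listed genes were higher in tumor than in UVB epidermis, with a median log2 of 6.55, and all 21 were higher in whole skin, with a median of 7.25. All 21 stayed called without any single library. Neb, the giant thin-filament protein nebulin, had 797 and 887 CPM in tumor and 3.36 and 4.64 CPM in UVB epidermis. In whole skin it had 346 and 712 CPM, and in control epidermis 1.52 and 2.31 CPM. The tumor libraries were the highest of the 8, and neither pair overlapped. Tumor and UVB epidermis did not overlap for 77.1% of all genes tested. Its log2 fold was 7.72 ± 0.44 (SE) in tumor over UVB epidermis (adjusted p = 1.3e-06) and 8.08 in whole skin over control epidermis. Actn3, the alpha-actinin of fast fibres, had 357 and 377 CPM in tumor and 1.68 and 0.714 CPM in UVB epidermis. Its whole skin libraries had 317 and 771 CPM and its control epidermis libraries 2.53 and 0.924 CPM. Here tumor lay between the whole skin libraries. Myo18b, a sarcomeric myosin, had 0 counts in both UVB epidermis libraries and 191 and 233 CPM in tumor, at least 862-fold higher. Summed over the list, muscle transcript reached 9437 and 9640 CPM in tumor, 271 and 300.2 CPM in UVB epidermis, 5590 and 11717 CPM in whole skin, and 175 and 191 CPM in control epidermis. No listed muscle gene was at 0 in tumor or UVB epidermis.

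Adipocyte, vessel and mast cell genes were higher in tumor than in UVB epidermis for most listed members. Of 10 adipocyte genes 7 were higher in tumor and 1, the lipase gene Lipe, was lower. Adipoq, which encodes adiponectin, had 27.7 and 44.6 CPM in tumor and 0.458 and 0.357 CPM in UVB epidermis, with 61.1 and 182 CPM in whole skin and 0.506 and 0 CPM in control epidermis. Tumor was above both epidermis groups and below whole skin. Lipe fell by 1.04 ± 0.31 on the log2 scale, and its call was lost without tumor 0 (adjusted p = 0.22) or UVB epidermis 1 (0.17). All 15 endothelial and mural genes were higher in tumor, with a median log2 of 4.77, and 13 were without UVB epidermis 1. Pecam1, the endothelial adhesion molecule CD31, had 65.7 and 91.1 CPM in tumor and 2.90 and 3.21 CPM in UVB epidermis. It had 28.9 and 56.0 CPM in whole skin and 1.18 and 0.924 CPM in control epidermis, so both tumor libraries stood above all others, by a log2 fold of 4.67 ± 0.54 over UVB epidermis (adjusted p = 5.28e-05). Of 11 mast cell genes 10 were higher in tumor, and 7 were without UVB epidermis 1. Their median log2 was 6.24, or 4.98 with the 2 genes at 0 counts in UVB epidermis set to their lower bound. Mcpt4, a connective tissue mast cell chymase, had 49.7 and 80.2 CPM in tumor and 0.153 and 0.179 CPM in UVB epidermis. It had 35.4 and 80.5 CPM in whole skin and 0 and 0.154 CPM in control epidermis, and tumor and whole skin overlapped. In bulk tissue, fewer cells of a type and less RNA per cell cannot be told apart.

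Fibroblast genes rose in tumor for 14 of 18 listed, with a median log2 of 5.08, and 1, the actin-severing gene Gsn, fell by 0.53 ± 0.18 on the log2 scale (adjusted p = 0.0466). The Gsn call was lost without any single one of the tumor, UVB epidermis and control epidermis libraries (adjusted p of 0.071 to 0.30). Counting every alternative, Gsn lost its call under 15 of 18, among them RLE and total-count scaling, DESeq2, no filter and the stricter filter. Dcn, the collagen-binding proteoglycan decorin, had 180 and 220 CPM in tumor and 5.50 and 3.39 CPM in UVB epidermis, with 112 and 219 CPM in whole skin and 1.01 and 0.924 CPM in control epidermis. Pdgfra, the receptor that marks dermal fibroblasts, had 41.2 and 60.3 CPM in tumor and 0.611 and 1.43 CPM in UVB epidermis, with 25.6 and 44.8 CPM in whole skin and 0.675 and 0.924 CPM in control epidermis. For both genes tumor overlapped whole skin and lay far above the epidermis groups. Of 20 collagen chains 17 were higher in tumor, with a median log2 of 3.81, and none was lower. In whole skin over control epidermis 19 of 20 were higher, with a median of 6.22, or 5.54 with the 3 chains at 0 counts in control epidermis set to their lower bound. Col7a1, the anchoring fibril collagen that keratinocytes make, was not called, with 350 and 369 CPM in tumor, 262 and 300.4 CPM in UVB epidermis, 275 and 193 CPM in whole skin and 132 and 170 CPM in control epidermis.

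Macrophage genes were higher in tumor for 15 of 18 listed, and for 9 without tumor 1 or without UVB epidermis 1. Msr1, a scavenger receptor, had 44.1 and 39.9 CPM in tumor and 1.98 and 2.50 CPM in UVB epidermis, with 19.0 and 25.7 CPM in whole skin and 0 CPM in both control epidermis libraries. Both tumor libraries exceeded the other 14, and the log2 fold over UVB epidermis was 4.22 ± 0.43 (adjusted p = 3.55e-05). Mrc1, the mannose receptor CD206, had 109 and 132 CPM in tumor and 3.97 and 3.39 CPM in UVB epidermis, with 44.2 and 115 CPM in whole skin and 0.337 and 0 CPM in control epidermis. Tumor and whole skin overlapped. Apoe, a lipid carrier that keratinocytes also express, was not called, with 227 and 237 CPM in tumor and 246 and 261 CPM in UVB epidermis. Of 17 T and NK cell genes 1 was called, Cd4, the helper T cell coreceptor. It had 5.91 and 13.4 CPM in tumor and 3.82 and 2.50 CPM in UVB epidermis (adjusted p = 0.0435), and the call was lost without tumor 1 (0.43), UVB epidermis 0 (0.094), UVB epidermis 1 (0.27) or either control epidermis library (0.059 and 0.058). Summed, the T and NK cell list held 101 and 122 CPM in tumor, 106 and 101 CPM in UVB epidermis, 272 and 122 CPM in whole skin and 114 and 61.4 CPM in control epidermis, and none of the 17 was at 0 in tumor or UVB epidermis. Of 5 dendritic epidermal T cell genes none was called in tumor over UVB epidermis. Of 31 interferon response genes 3 rose, the RNA sensor gene Ddx58 and the antiviral genes Ifit2 and Ifit3, against 17 in whole skin over control epidermis. Among all genes tested, 16.8% were called higher in tumor and 31.9% in whole skin, so the tumor share of this list was not above that of all genes. Ifit3 had 26.8 and 32.7 CPM in tumor, 5.04 and 7.50 CPM in UVB epidermis, 10.6 and 41.0 CPM in whole skin and 0.169 and 0 CPM in control epidermis. No interferon gene was called without tumor 1, UVB epidermis 0 or UVB epidermis 1, and 1 was without tumor 0.

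**Figure D2:**
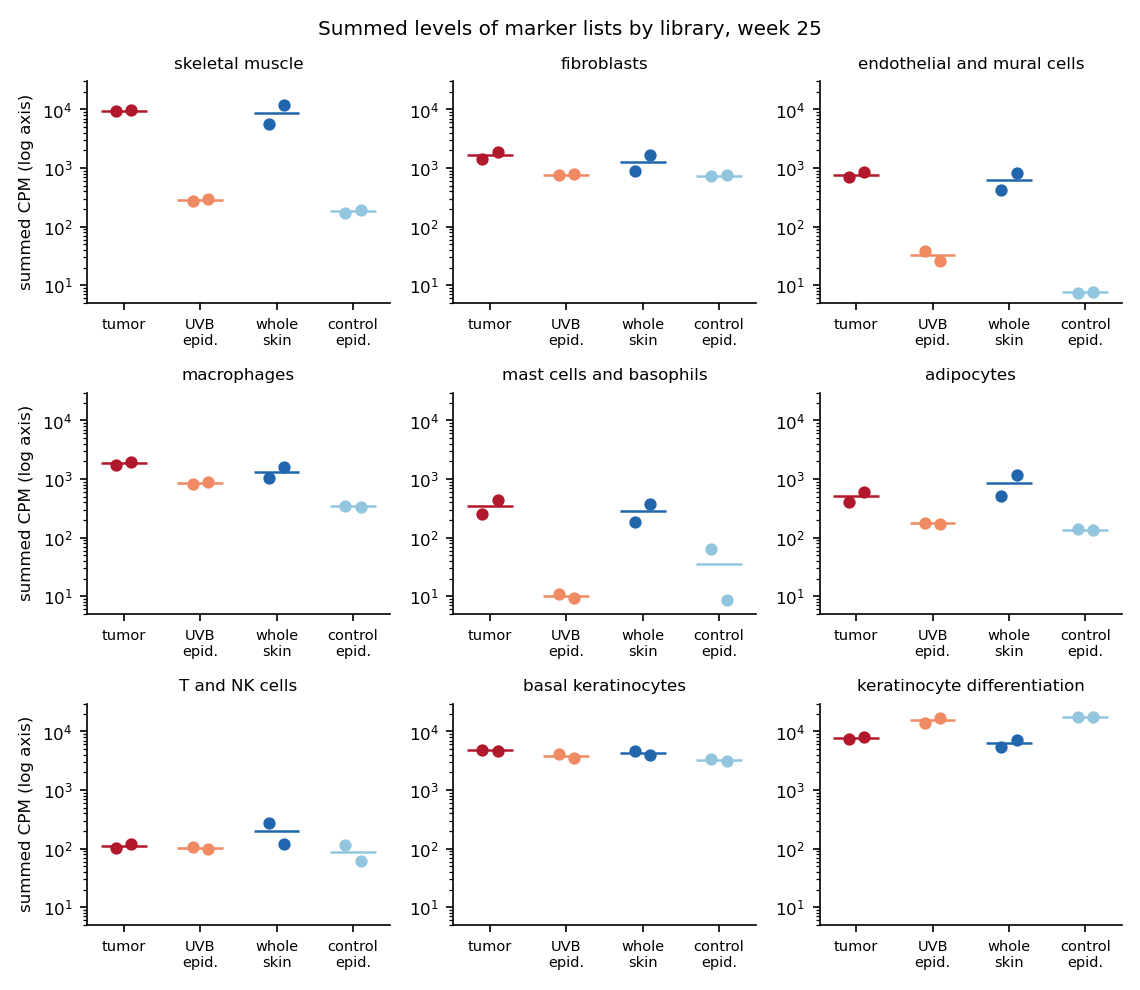
Summed CPM of 9 marker lists on a log axis, for tumor, UVB epidermis, whole skin of control mice and control epidermis, with 1 point per library and a line at the mean of 2 libraries. Muscle reached 9437 and 9640 CPM in tumor, against 271 and 300.2 CPM in UVB epidermis, while the differentiation list was lower in tumor than in UVB epidermis.

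Provisional matrix and activated stroma genes rose for 18 of 25 in tumor, and for 12 without UVB epidermis 1. Fn1, fibronectin, had 126 and 140 CPM in tumor and 10.5 and 1.79 CPM in UVB epidermis, with 66.0 and 136 CPM in whole skin and 4.39 and 1.85 CPM in control epidermis. Lox, the collagen crosslinking lysyl oxidase, had 24.8 and 35.9 CPM in tumor and 0.458 and 0.179 CPM in UVB epidermis, with 8.98 and 19.98 CPM in whole skin and 0 and 0.154 CPM in control epidermis. Tumor exceeded the other 14 libraries for Lox and overlapped whole skin for Fn1. Tnc, the wound matrix protein tenascin C, did not pass, with 227 and 216 CPM in tumor and 123 and 102 CPM in UVB epidermis. UVB epidermis stood far above control epidermis, which had 8.94 and 8.93 CPM, and whole skin had 57.5 and 135 CPM. Of 8 melanocyte genes 7 rose, and 2 did without UVB epidermis 1. Ednrb, the endothelin receptor of melanocytes, had 19.0 and 33.9 CPM in tumor and 0.763 and 0 CPM in UVB epidermis, with 11.4 and 37.1 CPM in whole skin and 0.506 and 0.154 CPM in control epidermis. Of 8 Schwann cell genes 5 rose, and none did without UVB epidermis 1. Of 34 hair follicle genes 2 rose, Cd34 and Lgr5, and 1, Foxn1, fell in tumor, where whole skin over control epidermis had 4 higher and 19 lower. Lgr5 was lost without UVB epidermis 1 (adjusted p = 0.0505), and Foxn1 without any 1 of the 4 libraries compared (0.0597 to 0.171) and with total counts.

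Matrix proteases and their inhibitors were higher in tumor for 17 of 24 genes tested and lower for none. Without UVB epidermis 1 the count was 8, without tumor 1 it was 11. In 16 of the 24 both tumor libraries exceeded the other 14 libraries of the study, which held for 1074 of all genes tested (7.1%). Mmp12, the macrophage elastase whose AP-1 match is shown above, had 214 and 175 CPM in tumor and 8.85 and 6.25 CPM in UVB epidermis. It had 177 and 173 CPM in whole skin and 0.506 and 0.154 CPM in control epidermis. Its log2 fold was 4.68 ± 0.38 in tumor over UVB epidermis (adjusted p = 5.76e-06), and tumor and whole skin overlapped. Mmp3, stromelysin 1, had 130 and 110 CPM in tumor and 30.5 and 8.75 CPM in UVB epidermis. It had 23.7 and 86.9 CPM in whole skin and 1.01 and 0.924 CPM in control epidermis, so tumor stood above all other groups. Mmp10, stromelysin 2, had 60.2 and 49.3 CPM in tumor and 6.26 and 3.39 CPM in UVB epidermis, with 0.722 and 27.7 CPM in whole skin and 1.01 and 2.46 CPM in control epidermis. Log2 folds over UVB epidermis were 2.61 ± 0.64 for Mmp3 (adjusted p = 0.00731) and 3.49 ± 0.99 for Mmp10 (0.0169). Without UVB epidermis 1 neither was called (0.088 for Mmp3 and 0.15 for Mmp10), and Mmp10 was also lost without tumor 0 (0.062) or UVB epidermis 0 (0.062). Mmp13, the rodent interstitial collagenase, had 271 and 192 CPM in tumor and 71.9 and 32.0 CPM in UVB epidermis, with 6.09 and 181 CPM in whole skin and 0.337 and 0.770 CPM in control epidermis. Its tumor libraries were the highest of the 16, but its log2 of 2.15 ± 0.92 did not pass (adjusted p = 0.0985). Plaur, the urokinase receptor, had 21.6 and 24.8 CPM in tumor, 1.53 and 2.68 CPM in UVB epidermis, 9.08 and 9.46 CPM in whole skin and 0.169 and 0.154 CPM in control epidermis. It was called without each library in turn.

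Inflammatory mediators split in direction. Of 23 genes tested 9 were higher in tumor and 4 lower, and both tumor libraries exceeded the other 14 in 14 of the 23. Among all genes tested, 16.8% were called higher and 12.7% lower, and 7.1% had both tumor libraries above the other 14. Without UVB epidermis 1 the higher count was 4 and without tumor 1 it was 5. Cxcl2, a Cxcr2 ligand whose kappa B match is shown above, had 47.4 and 69.3 CPM in tumor and 0.611 and 0.357 CPM in UVB epidermis. It had 4.75 and 25.5 CPM in whole skin and 0 CPM in both control epidermis libraries. The log2 fold over UVB epidermis was 6.83 ± 0.92 (adjusted p = 0.000209). Cxcl5, another Cxcr2 ligand, had 11.2 and 13.1 CPM in tumor, 0 counts in both UVB epidermis libraries, 1.24 and 4.82 CPM in whole skin and 0 counts in control epidermis. It was at least 49.4-fold higher in tumor than in UVB epidermis. Cxcl3 had 18.0 and 10.9 CPM in tumor and 1.07 and 0.179 CPM in UVB epidermis, and Cxcl1 had 7.06 and 8.83 CPM in tumor and 1.83 and 0.714 CPM in UVB epidermis. The groups did not overlap for any of these 4 chemokines, as was the case for 77.1% of all genes tested. Cxcl3 and Cxcl1 passed the test (adjusted p of 0.00577 and 0.013) but not without UVB epidermis 1 (0.073 and 0.14). Ccl3, a chemokine that draws monocytes and macrophages, had 21.0 and 29.1 CPM in tumor and 0.458 and 0.536 CPM in UVB epidermis (log2 5.61 ± 0.83, adjusted p = 0.000298). Ptgs2, the inducible cyclooxygenase, had 109 and 152 CPM in tumor, 29.2 and 19.3 CPM in UVB epidermis, 12.8 and 48.4 CPM in whole skin and 4.55 and 1.69 CPM in control epidermis. Its log2 of 2.42 ± 0.61 passed (adjusted p = 0.00854), but not without UVB epidermis 1 (0.10) or tumor 1 (0.057).

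The 4 mediators that fell were Il1a, Il1rn, Ptges and Ccl20. Ptges, a prostaglandin E synthase (log2 -0.53 ± 0.17), was lost without any 1 of the 4 libraries compared (adjusted p of 0.0597 to 0.206) and with RLE or total-count scaling, and 2 falls were left without each of these libraries. Il1a, the interleukin 1 that keratinocytes store, had 35.7 and 33.0 CPM in tumor and 89.5 and 128 CPM in UVB epidermis, with 19.3 and 25.3 CPM in whole skin and 128 and 135 CPM in control epidermis (log2 -1.66 ± 0.28 in tumor over UVB epidermis, adjusted p = 0.00064). Tumor lay between whole skin and the epidermis groups. Ccl20, which draws Ccr6-bearing cells, had 5.62 and 5.52 CPM in tumor, below the other 14 libraries, and 19.2 and 15.9 CPM in UVB epidermis. It was the only listed mediator called in tumor and not in whole skin over control epidermis (log2 -1.66 ± 0.47 and -0.64), and its call was lost without any of the 4 libraries compared (adjusted p of 0.051 to 0.092). Macrophage markers summed to 1751 and 1967 CPM in tumor, 810 and 889 CPM in UVB epidermis, 1026 and 1603 CPM in whole skin and 345 and 337 CPM in control epidermis, with 1 of 18 members at 0 in each UVB epidermis library. Neutrophil markers, of which 5 of 11 tested were higher in tumor, summed to 609 and 620 CPM in tumor, 469 and 443 CPM in UVB epidermis, 195 and 492 CPM in whole skin and 270 and 288 CPM in control epidermis, over 14 genes of which 1 was at 0 in each tumor library and 4 in each UVB epidermis library. The neutrophil genes did not move together: 6 of 11 were higher in both tumor libraries and 4 lower in both, the median log2 was 0.15, and 3 rises were left without tumor 1 and 2 without UVB epidermis 1. Of all genes tested, 40.5% were higher in both tumor libraries, 36.7% were lower in both and 16.8% were called higher. A split in direction is therefore not particular to the neutrophil list. Csf3r, the granulocyte colony-stimulating factor receptor, had 25.2 and 46.8 CPM in tumor and 0.305 and 0.536 CPM in UVB epidermis. The part of these cells in the protease and mediator differences was not tested.

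**Figure D3:**
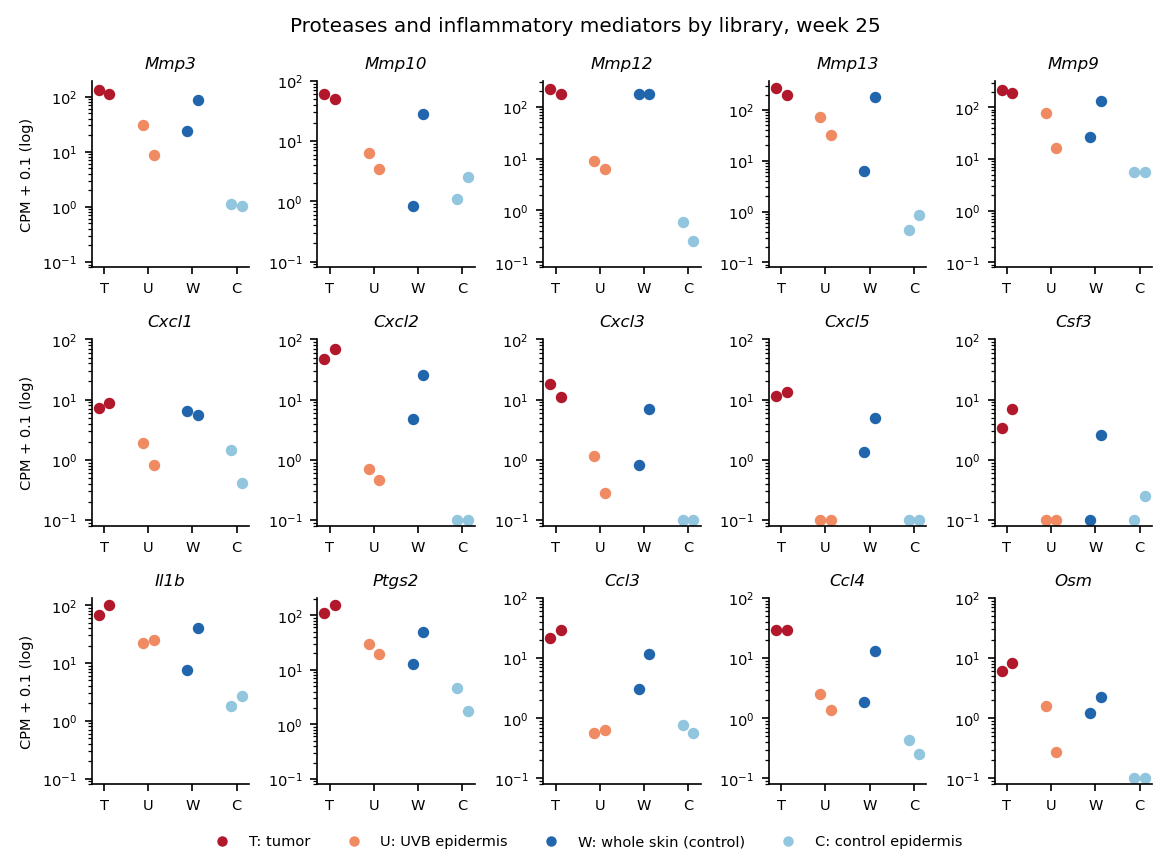
CPM plus 0.1 on a log axis for 15 protease and mediator genes, 1 point per library, for tumor (T), UVB epidermis (U), whole skin of control mice (W) and control epidermis (C). Cxcl2 had 47.4 and 69.3 CPM in tumor and 0.611 and 0.357 CPM in UVB epidermis, and whole skin 1 was nearer to tumor than whole skin 0 for Mmp13 (181 and 6.09 CPM).

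Keratinocyte differentiation genes were lower in both tumor libraries than in both UVB epidermis libraries for all 34 tested, and 21 passed the test. Of all genes tested, 36.7% had that order. The median log2 was -1.12 in tumor over UVB epidermis and -1.54 in whole skin over control epidermis, where 29 passed. Without tumor 0 the count was 13 and without UVB epidermis 1 it was 14. Krt77, a keratin of suprabasal epidermis on chromosome 15 (101859856 to 101869618, mm10), had 19.2 and 20.7 CPM in tumor and 433 and 461 CPM in UVB epidermis. It had 222 and 164 CPM in whole skin and 572 and 523 CPM in control epidermis. Tumor was below every other library, by a log2 fold of -4.49 ± 0.31 against UVB epidermis (adjusted p = 2.27e-06) where whole skin differed from control epidermis by -1.51. Flg2, the filaggrin-like protein of the cornified layer, had 117 and 117 CPM in tumor and 454 and 584 CPM in UVB epidermis, with 223 and 211 CPM in whole skin. Alox12b, a lipoxygenase of the lipid barrier, had 62.2 and 82.1 CPM in tumor and 240 and 287 CPM in UVB epidermis, with 68.3 and 53.2 CPM in whole skin and 448 and 430 CPM in control epidermis. Tumor and whole skin overlapped for Alox12b. Krt1 and Krt10, the paired keratins of the spinous layer, were not called. Krt10 had 417 and 415 CPM in tumor, 569 and 667 CPM in UVB epidermis, 323 and 457 CPM in whole skin and 644 and 608 CPM in control epidermis (log2 -0.57 ± 0.24, adjusted p = 0.0924). Abundant genes reach a ceiling near 2 counts per base in these duplicate-removed data, which understates their folds. Krt77 reached 1.97 counts per base, its highest value, in control epidermis. Its fold in whole skin over control epidermis may therefore be understated, and the difference between its contrasts overstated.

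Basal keratinocyte genes gave 3 calls among 14, all higher in tumor, where 16.8% of all genes tested were called higher. They were Lamb3 and Lama3, chains of laminin 332, and Itgb1, the integrin beta 1 chain. Lama3 had 201 and 163 CPM in tumor, 101 and 54.3 CPM in UVB epidermis, 138 and 126 CPM in whole skin and 58.9 and 58.4 CPM in control epidermis. Its log2 fold was 1.23 ± 0.33 (adjusted p = 0.0125). Both tumor libraries were above the other 14 for these 3 genes and for Itga6 and Cd44. None of the 3 was called without tumor 0 (adjusted p of 0.0887 or more) or without UVB epidermis 1 (0.164 or more), and only Lama3 was called without tumor 1. Krt5 had 534 and 527 CPM in tumor, 566 and 601 CPM in UVB epidermis, 412 and 551 CPM in whole skin and 544 and 505 CPM in control epidermis, and Krt14 and Trp63 also did not pass. The Krt5 log2 was -0.14 ± 0.18 with TMM scaling and 0.03 with total counts. Of 15 genes of epithelial-mesenchymal transition, Cdh1, Epcam and Esrp1 fell and 8 rose. Without tumor 1 or UVB epidermis 1 there were 5 rises, and without tumor 0 or UVB epidermis 1 there was 1 fall. Prrx1, a mesenchymal homeobox gene, had 69.7 and 86.9 CPM in tumor and 0.458 and 0.714 CPM in UVB epidermis, with 30.1 and 84.7 CPM in whole skin and 0.337 and 0 CPM in control epidermis. Zeb1, Zeb2, Twist1, Twist2, Snai1, Snai2 and Cdh2 were also called higher, and all 11 calls went the same way in whole skin over control epidermis. Snai1 and Cdh2 were lost without any 1 of the 4 libraries compared (adjusted p of 0.0558 to 0.145), and Cdh1 without tumor 0 (0.053) or UVB epidermis 1 (0.0628). The fibroblast list above moved with these genes, and its part in them was not tested.

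Of 30 proliferation genes none passed in tumor over UVB epidermis by edgeR, and 28 passed in whole skin over control epidermis, all higher in whole skin. At an unadjusted p under 0.05 the tumor count was 7, and DESeq2 called 2, as did edgeR without either whole skin library. All 30 log2 values were above 0 in tumor, with a median of 0.71, and in 28 both tumor libraries exceeded both UVB epidermis libraries, an order found in 40.5% of all genes. Mki67, the marker Ki-67, had 174 and 162 CPM in tumor, 106 and 91.8 CPM in UVB epidermis, 196 and 120 CPM in whole skin and 57.2 and 56.7 CPM in control epidermis (log2 0.76 ± 0.28, adjusted p = 0.0573). Control epidermis was the lowest group, and UVB epidermis lay between it and tumor. Summed, the list held 1824 and 1549 CPM in tumor, 1249 and 981 CPM in UVB epidermis, 1382 and 1357 CPM in whole skin and 530 and 543 CPM in control epidermis.

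Of 12 EGFR ligands and receptors 6 fell and 2 rose in tumor. Without tumor 0 or UVB epidermis 1 there were 3 falls, without tumor 1 there were 4, and 1 rise was left without UVB epidermis 1. Btc, the ligand betacellulin, had 17.1 and 15.9 CPM in tumor, the lowest of the 16 libraries, and 83.3 and 77.7 CPM in UVB epidermis, with 37.9 and 27.7 CPM in whole skin and 265 and 193 CPM in control epidermis. Ereg, which encodes epiregulin, had 91.1 and 125 CPM in tumor and 275 and 395 CPM in UVB epidermis. Nrg1, a ligand of the ErbB3 and ErbB4 receptors, had 20.3 and 17.9 CPM in tumor, above all other libraries, and 2.44 and 1.61 CPM in UVB epidermis. Log2 folds were -2.29 ± 0.40 for Btc (adjusted p = 0.000904), -1.63 ± 0.25 for Ereg (0.000403) and 3.22 ± 0.80 for Nrg1 (0.00846), and the Nrg1 call was lost without UVB epidermis 1 (0.094). Of 20 immediate early and AP-1 genes 8 fell and none rose, and the count was 3 without UVB epidermis 1, 4 without tumor 0 and 5 without tumor 1 or UVB epidermis 0. Egr3, a serum-induced zinc finger factor, had 118 and 123 CPM in tumor and 325 and 407 CPM in UVB epidermis, with 166 and 110 CPM in whole skin and 466 and 471 CPM in control epidermis. Of 30 p53 targets 7 fell and 4 rose, 15 log2 values were above 0 and the median was -0.08. Of all genes tested, 12.7% fell and 16.8% rose. Cdkn1a, the cell cycle inhibitor p21, had 157 and 185 CPM in tumor, 293 and 323 CPM in UVB epidermis, 137 and 127 CPM in whole skin and 340 and 330 CPM in control epidermis (log2 -0.85 ± 0.15, adjusted p = 0.000781). Ptp4a3, a phosphatase also expressed in skeletal muscle, had 163 and 183 CPM in tumor, 32.4 and 29.3 CPM in UVB epidermis, 91.0 and 273 CPM in whole skin and 8.43 and 15.1 CPM in control epidermis. Without tumor 0 the p53 targets gave 3 lower and 2 higher calls.

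Of 24 genes linked to squamous carcinoma 4 rose and 2 fell in tumor, shares near those of all genes tested (16.8% higher and 12.7% lower). Runx1, a transcription factor of skin tumor growth, had 82.1 and 71.6 CPM in tumor, 50.8 and 35.2 CPM in UVB epidermis, 63.9 and 47.8 CPM in whole skin and 51.1 and 33.6 CPM in control epidermis (log2 0.84 ± 0.27, adjusted p = 0.0332). Pthlh, the parathyroid hormone-related peptide of squamous tumors, had 8.50 and 13.8 CPM in tumor, 2.29 and 1.43 CPM in UVB epidermis, 13.8 and 6.6 CPM in whole skin and 5.57 and 1.85 CPM in control epidermis (2.56 ± 0.67, adjusted p = 0.0113). Runx1 and Pthlh were not called in whole skin over control epidermis. Procr and Fst rose and were called there too, and Cdkn2b and Pvrl1 fell in both. No rise in this list was called without UVB epidermis 1, where Runx1 had an adjusted p of 0.29 and Pthlh of 0.12, and neither passed without tumor 1 (0.079 and 0.081). Of 26 hypoxia and glycolysis genes 7 rose and 1, the hexokinase gene Hk1, fell, and 1 rise was left without tumor 1, without UVB epidermis 0 or without UVB epidermis 1. Slc16a3, the lactate exporter MCT4, had 117 and 115 CPM in tumor, above all others, and 33.6 and 26.6 CPM in UVB epidermis, with 26.8 and 95.6 CPM in whole skin and 6.58 and 6.16 CPM in control epidermis. Its adjusted p of 0.0179 passed, but not without any 1 of the 4 libraries compared (0.062 to 0.14). Of 19 angiogenesis genes 16 rose, 11 without UVB epidermis 1. Flt1, the VEGF receptor 1, was called in tumor alone, with 13.98 and 23.9 CPM in tumor, 4.73 and 3.93 CPM in UVB epidermis, 6.61 and 9.10 CPM in whole skin and 13.5 and 9.39 CPM in control epidermis. Its log2 was 2.12 ± 0.60 in tumor over UVB epidermis (adjusted p = 0.0166) and -0.55 in whole skin over control epidermis, and its call was lost without tumor 1 (0.12), UVB epidermis 0 (0.070) or UVB epidermis 1 (0.13).

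**Figure D4:**
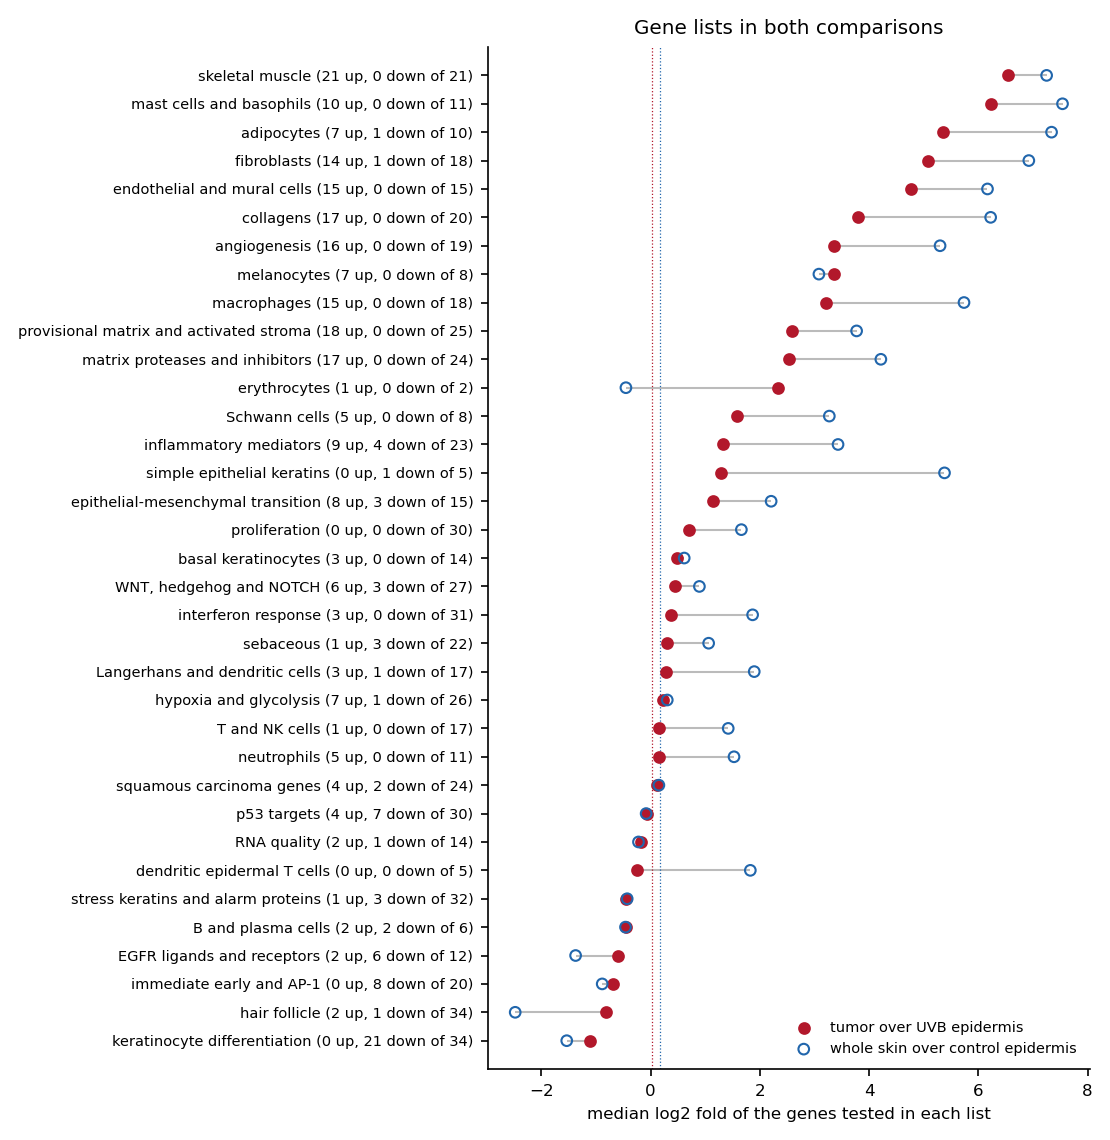
Median log2 fold of the genes tested in each of 35 lists, as filled circles for tumor over UVB epidermis and open circles for whole skin over control epidermis, with dotted lines at the medians of all genes (0.03 and 0.18). Genes at 0 counts in the lower group enter with their fitted value, and skeletal muscle (6.55) and keratinocyte differentiation (-1.12) mark the ends of the order in tumor.

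Among the 284 genes called in tumor and not in whole skin over control epidermis, those with the largest folds were of mixed function. The rises in order of log2 were Csf3, Mcpt2, Mcpt1, Ifnk, Fhod3, Srgap3, Zbtb16 and Stc1. Csf3, the granulocyte colony-stimulating factor, had 3.31 and 6.90 CPM in tumor, 0 counts in both UVB epidermis libraries, 0 and 2.50 CPM in whole skin and 0 and 0.154 CPM in control epidermis. It was at least 20.8-fold higher in tumor than in UVB epidermis (adjusted p = 0.018). Fhod3, a formin of striated muscle sarcomeres, had 24.4 and 30.5 CPM in tumor, 2.75 and 1.25 CPM in UVB epidermis, 15.998 and 33.9 CPM in whole skin and 13.7 and 4.77 CPM in control epidermis. Its UVB epidermis libraries were the lowest of the 8, and tumor overlapped whole skin, as the muscle list also did, whose part in Fhod3 was not tested. Stc1, the secreted glycoprotein stanniocalcin 1, had 4.90 and 7.17 CPM in tumor and 0.611 and 0.536 CPM in UVB epidermis, with 1.24 and 3.57 CPM in whole skin and 1.18 and 0.924 CPM in control epidermis (log2 3.35 ± 0.76, adjusted p = 0.00468). Tumor was above the other 3 groups of the week. Mcpt1 and Mcpt2, related mucosal mast cell proteases, had 8.07 to 12.4 CPM in tumor and at most 0.611 CPM in UVB epidermis. Whole skin 0 and 1 had 0 and 3.57 CPM of Mcpt1 and 0 and 4.28 CPM of Mcpt2, and control epidermis had 0 counts. Whether reads were split between these genes was not tested. Of the 164 rises, 47 (28.7%) had both tumor libraries above the other 14, against 556 of all 2543 rises.

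The falls in order of log2 were Prr15l, Accsl, Egfl6, Il22ra2, Ypel1 and Srrm4os. Prr15l, a proline-rich protein, had 0.288 and 0.138 CPM in tumor and 6.11 and 5.89 CPM in UVB epidermis, with 1.45 and 13.9 CPM in whole skin and 10.6 and 12.0 CPM in control epidermis. With 3 counts in tumor, it was 28.4-fold lower there than in UVB epidermis (95% counting interval 9.35 to 141). Il22ra2, the soluble receptor that binds interleukin 22, had 1.44 and 1.24 CPM in tumor, 4.73 and 6.97 CPM in UVB epidermis, 17.9 and 6.96 CPM in whole skin and 14.8 and 10.01 CPM in control epidermis. Its log2 was -2.10 ± 0.56 in tumor over UVB epidermis (adjusted p = 0.012) and 0.02 (95% interval -1.05 to 1.09) in whole skin over control epidermis. Tumor was the lowest group for both genes. Accsl had 1.15 and 1.66 CPM in tumor and 7.63 and 8.75 CPM in UVB epidermis, with 1.55 to 2.16 CPM in the control tissues, so here UVB epidermis stood apart. Of the 14 genes named from this class, only Prr15l kept its call without each library in turn. Without UVB epidermis 1 the adjusted p of 12 others was 0.051 to 0.24, and Ypel1 was lost without tumor 1 (0.069).

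Hpgd and Duoxa1 moved against tissue depth. Hpgd, which degrades prostaglandins and lies on chromosome 8 (56294552 to 56321046, mm10), had 44.7 and 59.3 CPM in tumor, 72.7 and 109 CPM in UVB epidermis, 30.1 and 36.0 CPM in whole skin and 7.42 and 8.47 CPM in control epidermis. Its log2 fold was -0.80 ± 0.26 in tumor over UVB epidermis (adjusted p = 0.032) and 2.05 in whole skin over control epidermis, and the difference of the contrasts was -2.85 ± 0.39 (adjusted p = 0.0219). Duoxa1, the maturation factor of dual oxidase 1, had 49.0 and 51.0 CPM in tumor, 71.7 and 82.3 CPM in UVB epidermis, 39.2 and 38.0 CPM in whole skin and 18.6 and 25.6 CPM in control epidermis. Both genes were highest in UVB epidermis and lowest in control epidermis. Their tumor calls did not hold under every alternative. Hpgd was lost without tumor 0 (0.24), tumor 1 (0.055) or UVB epidermis 1 (0.36), Duoxa1 without any of these libraries or UVB epidermis 0 (0.077 to 0.25), and both with total-count or RLE scaling.

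Of the 14 genes whose difference of contrasts was called, described here after their values were seen, 12 were lower in control epidermis than in the other 3 groups. Clec7a, the beta-glucan receptor Dectin-1 of myeloid cells, had 87.6 and 75.1 CPM in tumor and 9.01 and 11.4 CPM in UVB epidermis, with 65.3 and 54.6 CPM in whole skin and 0.169 and 0 CPM in control epidermis. Ctss, the lysosomal protease cathepsin S, had 166 and 176 CPM in tumor and 66.7 and 62.5 CPM in UVB epidermis, with 132 and 135 CPM in whole skin and 8.94 and 5.70 CPM in control epidermis. Tumor exceeded the other 14 libraries for both genes, and UVB epidermis lay above control epidermis. Cd200, a surface glycoprotein that restrains myeloid cells, had 71.3 and 81.8 CPM in tumor, 79.7 and 74.1 CPM in UVB epidermis, 64.8 and 56.9 CPM in whole skin and 17.0 and 16.8 CPM in control epidermis. Its difference was -1.85 ± 0.27 (adjusted p = 0.0277), with no call in tumor over UVB epidermis (log2 -0.01 ± 0.18). Cyp26b1, which breaks down retinoic acid, was the 1 gene with a positive difference, 2.65 ± 0.45 (adjusted p = 0.0499). It had 28.7 and 40.1 CPM in tumor, 45.2 and 43.8 CPM in UVB epidermis, 26.5 and 24.1 CPM in whole skin and 202 and 209 CPM in control epidermis. Krt77, with the values given above, differed by -2.98 ± 0.39 (adjusted p = 0.0202), and it was the only one of the 14 whose tumor libraries lay below the other 14 libraries. Its counts in control epidermis lay near the ceiling of 2 counts per base, so the size of this difference may be overstated. All 14 were also among the 39 genes called both without whole skin 0 and without whole skin 1. The count was 0 to 2 genes without any 1 of the other 6 libraries of the week, 0 with the 8 libraries of week 25 alone, 6 with counts thinned to equal depth, 2 against a fold of 1.5, 112 with no filter on low counts and 306 by DESeq2.

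**Figure D5:**
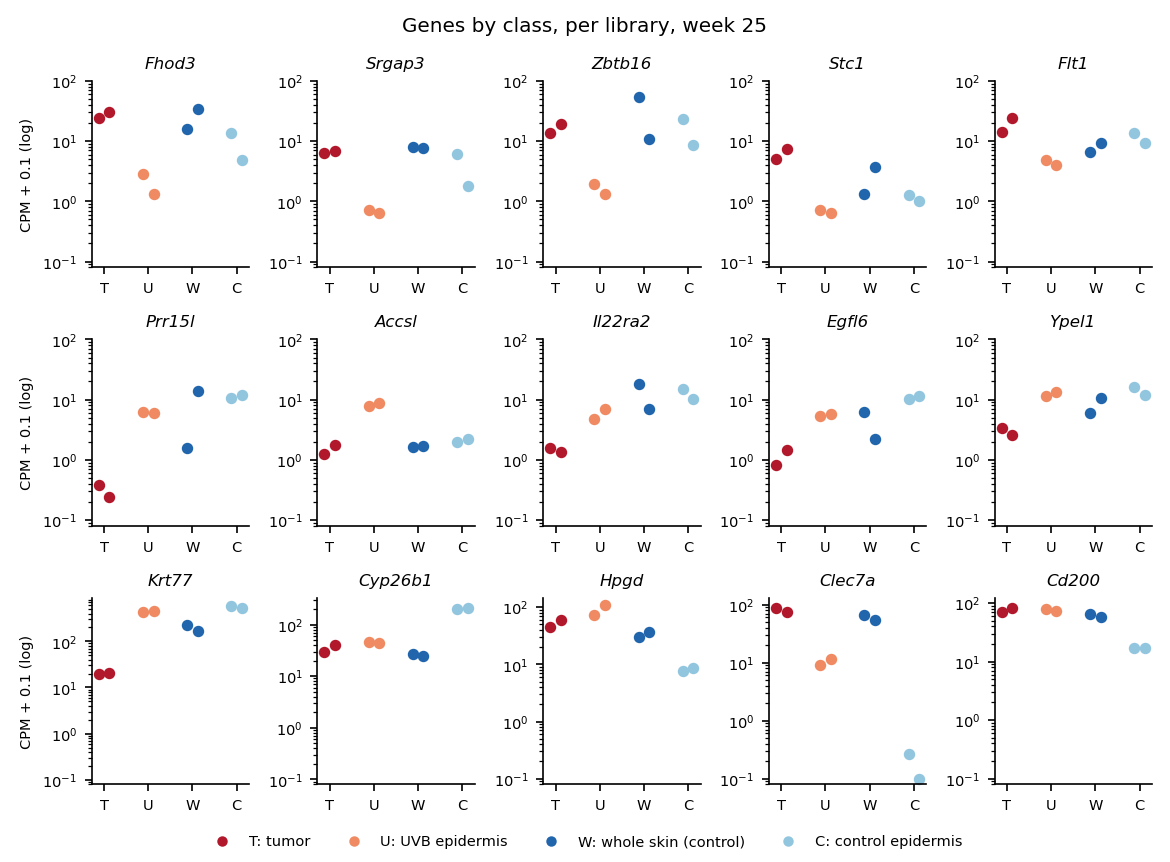
CPM plus 0.1 on a log axis for 15 genes, 1 point per library, for tumor (T), UVB epidermis (U), whole skin of control mice (W) and control epidermis (C). The top row shows genes higher in tumor than in UVB epidermis and not called in whole skin, the middle row genes lower in tumor and not called there, and the bottom row genes whose difference of contrasts was called, among them Krt77 with 19.2 and 20.7 CPM in tumor and 433 and 461 CPM in UVB epidermis.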

How the data were processed

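The authors deposited 1 table of raw gene counts for 16 libraries (8 groups of 2), with no normalization. Per the submitters' processing notes, HISAT2, Picard, featureCounts and DESeq2 were used with mm10, and per the file headers duplicates had been removed before counting. Removing duplicates caps the reads a gene can hold and so compresses the folds of abundant genes. No header or note states whether counting used strand, how reads matching several genes were treated or which annotation served. Genes of families with near-identical members, and overlapping genes, are therefore uncertain.

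From these counts, edgeR 4.0.16 in R 4.3.3 fitted 1 quasi-likelihood model to all 16 libraries with a term per group (8 residual degrees of freedom, TMM scaling). Genes passed a filter of about 10 counts, as CPM, in at least 2 libraries and 15 counts in total (filterByExpr), which left 15126 of 24421. P-values were adjusted by Benjamini-Hochberg over all genes tested, and adjusted p-values in the text are from this two-sided edgeR test unless another tool is named. CPM values are counts divided by the TMM-scaled library size and set to a common total. Errors after ± are standard errors of the log2 fold, taken as its size over the root of the F statistic. Intervals are 95%, and those of log2 folds use 8 degrees of freedom. The test uses more, so these intervals are wider than its p-values imply. Counting intervals and floors of 3 counts cover counting error only, since reads without molecular identifiers are not independent molecules. Totals were 2905165 to 7959503 counts per library. Counts were simulated for 14632 genes with the same expression profile in every group, except 100 genes changed 2-fold and 100 changed 4-fold in tumor. The test of tumor over UVB epidermis recovered 28% of these 2-fold and 73% of these 4-fold changes, with 4 false calls. In the data 29.5% of genes were called and the groups are different tissues, so recovery there was not measured.

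The members and the 35 gene lists (686 symbols, 671 in the table, 640 tested) were chosen with earlier results of these data known. Genes were named as the 5 largest rises and falls called in both comparisons, those called in opposite directions, and up to 3 called members of each list with the smallest p. The rule for genes called in tumor alone asked for a called difference of the contrasts and found none. The 8 largest rises and 6 largest falls without that condition, and every other gene, were chosen after their values were seen. Alternatives covered scaling, filters, DESeq2 1.42.0, depth, libraries in the fit, a fold threshold of 1.5, a replicate block and each library of week 25 left out. Some members are not reported here.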

Additional observations from a re-analysis of the deposited data

Results flagged for a closer look

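The difference of the contrasts, tumor over UVB epidermis minus whole skin over control epidermis, passed an adjusted p of 0.05 in edgeR's quasi-likelihood test for 14 genes. Each stands out because its 2 contrasts differ by a test of the difference itself. The log2 difference was -1.85 for Cd200, -3.35 for Cd84, -2.79 for Ctss, -2.22 for Dapk1, -2.85 for Hpgd and -2.98 for Krt77. It was -4.32 for Mmp12, -3.68 for Mpeg1, -3.19 for Nceh1, -4.32 for Zcchc24 and 2.65 for Cyp26b1. The Krt77 value may be overstated in size, since its counts in control epidermis lay near the count ceiling. For Clec7a (-6.22), Cd300a (-6.38) and Lilr4b (-6.49) control epidermis had at most 1 read in all, so these fitted values depend on the prior count and are no bound. Cd300a had 30.8 and 34.4 CPM in tumor and 1.83 and 1.96 CPM in UVB epidermis, with 32.9 and 25.5 CPM in whole skin. Lilr4b had 48.3 and 54.8 CPM in tumor and 3.36 and 2.68 CPM in UVB epidermis, with 32.2 and 30.7 CPM in whole skin. Both were at 0 counts in control epidermis.

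Mpeg1, a pore-forming protein of macrophages, had 168 and 181 CPM in tumor and 16.6 and 15.5 CPM in UVB epidermis, with 189.7 and 109 CPM in whole skin and 1.86 and 0.308 CPM in control epidermis. Nceh1, a cholesterol ester hydrolase, had 63.3 and 70.9 CPM in tumor and 53.4 and 38.2 CPM in UVB epidermis, with 59.5 and 51.0 CPM in whole skin and 5.23 and 3.08 CPM in control epidermis. Tumor and UVB epidermis did not overlap for either gene, as was the case for 77.1% of all genes tested. Nceh1 did not pass in tumor over UVB epidermis (log2 0.55, adjusted p = 0.219 by edgeR).

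Duoxa1 stands out because its 2 contrasts were called in opposite directions, with a difference of -1.43. That difference did not pass the test (adjusted p = 0.109 by edgeR).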

How the results depend on the processing

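Tumor over UVB epidermis gave 2089 to 5477 calls when 1 of the 8 libraries of week 25 was left out (1224 to 3013 higher, 865 to 2464 lower). Whole skin over control epidermis gave 6225 to 8923 (3319 to 5059 higher, 2906 to 3864 lower). The difference of the contrasts gave 0 to 1265 (0 to 641 higher, 0 to 624 lower). The classes held 2063 to 4836 genes in the same direction, 25 to 853 not called in whole skin, 0 to 12 opposite, and 0 to 15 not called with a called difference, and the share in the same direction was 84.2% to 98.8%. A group left with 1 library was assumed to vary like the others.

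Under RLE scaling 0 differences were higher and 0 genes opposite. With total counts, whole skin had 2227 lower calls and 0 genes were opposite. DESeq2 gave 306 differences (130 higher, 176 lower), 3 of them among genes called in tumor alone. With no filter there were 112 differences (22 higher, 90 lower) and 1 opposite gene, and with the stricter filter 0 higher differences. The 8 libraries of week 25 alone gave 0 differences (0 higher, 0 lower), and counts thinned to equal depth gave 6 (0 higher, 6 lower). Against a fold of 1.5 there were 2758 tumor calls (854 lower), 2170 lower whole skin calls, 2 differences (0 higher, 2 lower), 2594 genes in the same direction, 164 not called and 0 opposite. The 4 libraries compared gave 6974 calls (3975 higher, 2999 lower). Chosen after seeing the data, 39 differences were called both without whole skin 0 and without whole skin 1. The cause of these changes was not tested, apart from the fewer libraries or higher bar that a setting itself imposes.

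The labels do not say that a replicate number marks a shared animal or day, and the numbers were not taken to pair the libraries. Deviations of same-numbered libraries correlated by 0.17 between tumor and UVB epidermis, 0.21 between UVB and control epidermis, 0.074 between whole skin and control epidermis and -0.025 to -0.0079 in the other 3 pairs of groups. With the number as a replicate block there were 4442 tumor calls, 4326 of them among the 4469, and 18 differences.

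Of 323 called genes that are named or belong to a list, 178 were called under every alternative. The sign of the log2 turned for 5 uncalled genes. Cd200 had 0.052 with RLE scaling, 0.15 with total counts, 0.051 with DESeq2, 0.0087 with the stricter filter and 0.018 with 4 libraries, and -0.11 to 0.087 when 1 library was left out. With total counts Apoe had 0.037, Krt5 0.029 and Cd7 0.012. When 1 library was left out Cd7 ranged over -0.35 to 0.049 and Tchh over -1.25 to 0.28. Thinning to equal depth left 4232 tumor calls, 4102 of them among the 4469.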
